A study of Mus musculus with 4 samples.

Results

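The 34 genes described here encode the folding machinery of the endoplasmic reticulum (ER) and the unfolded protein response, the signalling that adjusts that machinery to its load. Their rows were taken by gene symbol from the table of 19044 genes, and all 34 were found, Ero1l and Ero1lb under their newer symbols Ero1a and Ero1b. In the 4 libraries of regulatory T cells (Treg cells), 33 of the 34 passed the minimum of a mean of 5 CPM (counts scaled to a common library size) and were tested. Trib3, at 3.06 to 4.83 CPM, did not reach it. Together the 34 genes held 6690 CPM in KO-labelled aTreg, 6520 CPM in KO-labelled rTreg, 6050 CPM in WT aTreg and 5350 CPM in WT rTreg.

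The study took Foxp3-expressing Treg cells from spleen and lymph nodes of mice. The mice labelled knockout carried a Ripk1 gene flanked by loxP sites (Ripk1fl/fl) with a Cre recombinase and yellow fluorescent protein driven by Foxp3 (Foxp3-YFP-Cre), so that deletion is directed to Foxp3-expressing cells. The mice labelled WT carried the same Foxp3-YFP-Cre without the floxed gene, so all 4 libraries come from Cre-bearing animals, and no library was treated. Each genotype gave 1 library called aTreg and 1 called rTreg, 2 states that the labels do not spell out. The sources used here do not give the age, sex or number of mice, nor the sorting gate. RIPK1 is a kinase and scaffold downstream of death receptors.

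Proteins that will be secreted or held in membranes enter the ER through the Sec61 channel and fold there with the help of chaperones, among them BiP, and of enzymes that form disulfide bonds. When unfolded proteins accumulate, IRE1 splices Xbp1 mRNA, ATF6 is cut to release a transcription factor, and PERK phosphorylates eIF2alpha, which lowers translation and raises ATF4. XBP1 and ATF6 act mainly on chaperone, translocon and degradation genes, and ATF4 and CHOP on amino acid, redox and death genes. Gene counts do not separate spliced from unspliced Xbp1, nor the cleavage or phosphorylation of the sensors.

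Depth was 17588754 to 20868319 counts per library, which is high enough that counting error is small for most of the members. Every combination of genotype and state has 1 library, so ratios of 2 libraries are given with a 95% exact binomial interval that covers counting error only. A gene is said to rise or fall only where edgeR's quasi-likelihood test with genotype and state as additive terms gave an adjusted p below 0.05 over all 9680 tested genes. Its error comes from 1 residual degree of freedom and the other genes, so its p-values measure the spread between these libraries, not between mice. Ripk1 itself was at 80.8 and 84.7 CPM in KO-labelled aTreg and rTreg, against 77.5 and 83.6 CPM in WT aTreg and rTreg (edgeR adjusted p = 0.658). The count over the whole gene thus shows no sign of the deletion, which need not remove all exons, so those libraries are named KO-labelled. Serpinb6a overlaps Ripk1 on the opposite strand. Foxp3, the factor that defines Treg cells, stood between 619 and 693 CPM in all 4. Xist, expressed from the inactive X of females, was at 0.213 and 0.284 CPM in KO-labelled aTreg and rTreg, against 338 and 299 CPM in the WT libraries. Y-linked genes were present in all 4. Ddx3y (97.4 to 126 CPM) and Uty (19.1 to 22.3 CPM) did not pass. Eif2s3y, at 76.7 and 87.6 CPM in KO-labelled aTreg and rTreg, against 50.8 and 65.9 CPM in WT aTreg and rTreg, rose by 0.50 log2 units and Kdm5d by 0.42. The WT libraries thus held both Xist and Y-linked RNA, and whether they pooled mice of both sexes is not stated in the labels. The Xist difference runs along genotype, so whatever the sex of the mice contributed and genotype cannot be told apart. All 12 markers of dividing cells rose, where 24.4% of all tested genes rose. Their summed levels were 1720 and 1890 CPM in KO-labelled aTreg and rTreg, against 421 and 718 CPM in WT aTreg and rTreg.

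Most ER folding genes had more mRNA in the KO-labelled libraries. In bulk libraries, fewer cells of a type and less RNA per cell cannot be told apart. Of the 33 tested members, 22 rose and 2 fell, where 24.4% of all tested genes rose and 22.8% fell. Both KO-labelled libraries lay above both WT libraries in 22 members, a position that 33.2% of all tested genes shared, and below both in 6, against 31.9%. The median log2 ratio of KO-labelled over WT over the 33 was 0.33 in aTreg and 0.31 in rTreg, while that of all tested genes was 0 and 0.01. The KO-labelled library was the higher in both states in 24 members, against 41.9% of all tested genes, and the lower in both in 6, against 40.9%.

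Most changes were small. Of the members that rose, 6 did so by at least 1.5-fold (Ern1, Sdf2l1, Ssr2, Pdia3, Manf and Dnajb11), against 8.9% of all tested genes, and 0 fell by as much by edgeR's test, against 6.51%. Ern1 alone was at least 2-fold higher in aTreg, against 3.95%, and in rTreg, against 3.41%. No member was 2-fold lower, where 2.17% of tested genes were in aTreg and 1.34% in rTreg. At least 1.5-fold higher were 7 members in aTreg, against 9.79% of all tested genes, and 8 in rTreg, against 8.74%. Dnajb9 was the 1 member 1.5-fold lower in aTreg, against 7.98%, and none was in rTreg, against 5.92%. In the authors' deposited table, which compares the genotypes, 15 of the 34 have an adjusted p below 0.05, all of them lower in WT, where 9.61% of the genes with an adjusted p are below it and lower in WT. That table was made from the same libraries. Leaving out 1 library, with state dropped from the fit, left 0 members that rose without KO-labelled aTreg or without KO-labelled rTreg by edgeR's adjusted test (13 and 18 at an unadjusted p below 0.05), 11 without WT aTreg and 9 without WT rTreg. With all 4 libraries and state dropped, 13 rose and 0 fell by edgeR (19 and 0 unadjusted). The members that lost the rise there were Hyou1, Pdia6, P4hb, Ero1a, Herpud1, Sec61a1, Ssr1, Atf6 and Xbp1.

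By role, groups of 2 to 6 genes whose difference was not tested, all 5 translocon genes rose, as did 5 of 6 ER chaperones and 5 of 6 disulfide isomerases and oxidases, where 24.4% of all tested genes rose. Of 4 genes of ER-associated degradation 1 rose, a share near that of all tested genes. The J-domain genes and Manf with Creld2 were mixed. Ern1, Atf6 and Xbp1, of the IRE1 and ATF6 branches, rose, but DESeq2 did not call Atf6 or Xbp1. Of the PERK branch, Eif2ak3, Atf4 and Ddit3 did not pass and Ppp1r15a fell. Of the chaperone, translocon and degradation genes, on which XBP1 and ATF6 mainly act, all 5 translocon genes and 5 of 6 ER chaperones rose. Hspa5 was the chaperone gene that did not pass. Of the degradation genes, Herpud1 rose and Sel1l, Syvn1 and Edem1 did not pass. The co-chaperone genes Dnajb11 and Dnajc3 rose, and Dnajb9 fell. A difference between branches was not tested. Dividing-cell markers move with genotype in the same direction as the folding genes, and their part in the result was not tested.

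**Figure D1:**
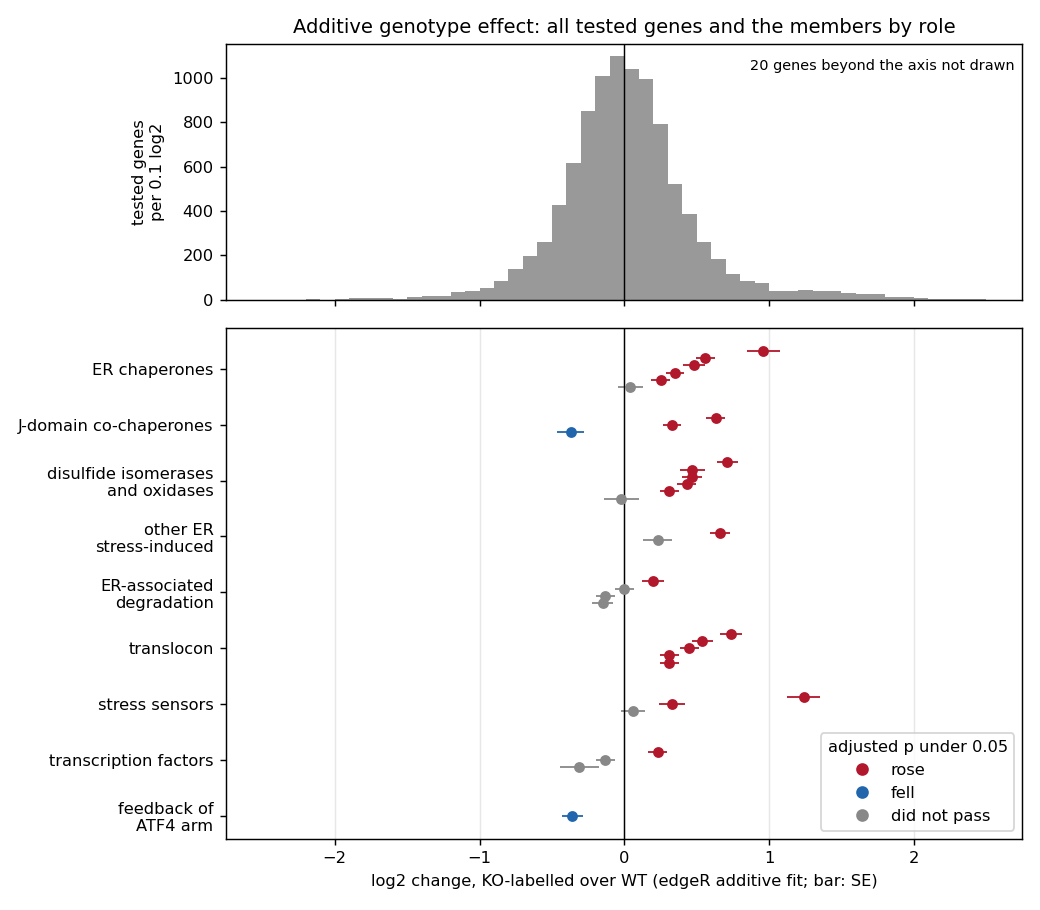
Additive genotype effect on the log2 scale (KO-labelled over WT). The upper panel counts all tested genes in steps of 0.1 log2. The lower panel shows the 33 tested members by role, with bars for the standard error (SE) derived from edgeR's test. Translocon, chaperone and isomerase genes lie to the right of 0 with few exceptions, and the genes of ER-associated degradation lie about 0.

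Among the ER chaperones, Hsp90b1, which encodes GRP94, the HSP90 of the ER, was at 331 CPM in KO-labelled aTreg and 345 CPM in KO-labelled rTreg, against 234 CPM in WT aTreg and 226 CPM in WT rTreg. Both KO-labelled libraries stood clear of both WT libraries. The genotype effect was a rise of 0.56 in log2 (SE 0.0679, edgeR adjusted p = 2.88e-05).

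Sdf2l1 (GRCm38 chromosome 16, 17130138 to 17132383, minus strand), a partner of ER J-domain proteins, was the chaperone gene with the largest change. It had 36.9 and 29.8 CPM in KO-labelled aTreg and rTreg, against 18.6 and 15.6 CPM in WT aTreg and rTreg. It rose 1.95-fold, which is 0.96 in log2 (SE 0.113, edgeR adjusted p = 2.06e-05), and the 2 states gave ratios of 1.98-fold and 1.9-fold.

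Calr and Canx encode calreticulin and calnexin, the lectin chaperones that hold newly glycosylated proteins. Calr was at 813 and 811 CPM in KO-labelled aTreg and rTreg, against 626 and 538 CPM in WT aTreg and rTreg, with a rise of 0.48 in log2 (SE 0.0741, edgeR adjusted p = 0.000171). Canx was at 220 and 231 CPM in the KO-labelled libraries, against 174 and 180 CPM in WT, and rose by 0.35. The nucleotide exchange factor gene Hyou1 rose by 0.25, from levels that were close together, at 141 and 122 CPM in KO-labelled aTreg and rTreg and 118 and 104 CPM in WT aTreg and rTreg. Its KO-labelled rTreg library thus lay only slightly above WT aTreg. DESeq2 did not call Hyou1, and its effect was 0.14 without KO-labelled aTreg, in the fits that leave out 1 library and drop state, and 0.16 without WT rTreg.

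Hspa5 (chromosome 2, 34771970 to 34777547, plus strand), which encodes BiP, the main HSP70 of the ER and the usual marker of ER stress, did not follow the other chaperones. It was at 855 CPM in KO-labelled aTreg, 848 CPM in KO-labelled rTreg, 947 CPM in WT aTreg and 724 CPM in WT rTreg. The KO-labelled libraries lay between the WT libraries, which were the extremes. The log2 ratio of KO-labelled over WT was −0.15 [−0.18 to −0.12] in aTreg and 0.23 [0.20 to 0.26] in rTreg. The additive effect was 0.04 (SE 0.0857, edgeR adjusted p = 0.728), and its sign turned with upper-quartile scaling.

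The J-domain proteins direct BiP to its clients, and the 3 genes of the list went different ways. Dnajb11 (ERdj3) was at 135 and 131 CPM in KO-labelled aTreg and rTreg, against 86.3 and 85.6 CPM in WT aTreg and rTreg, a rise of 0.63 in log2 (SE 0.0652, edgeR adjusted p = 7.31e-06). Dnajc3 (p58IPK) rose by 0.33, with 182 and 180 CPM in the KO-labelled libraries, against 146 and 143 CPM in WT. Dnajb9 (ERdj4; chromosome 12, 44205559 to 44210326, minus strand), a partner of BiP in misfolded protein degradation, fell.

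Dnajb9 was at 52.2 CPM in KO-labelled aTreg, 74.8 CPM in KO-labelled rTreg, 79.3 CPM in WT aTreg and 83.4 CPM in WT rTreg. The KO-labelled aTreg library stood lowest by a wide margin, and KO-labelled rTreg lay near both WT libraries. The log2 ratio of KO-labelled over WT was −0.60 [−0.72 to −0.49] in aTreg and −0.16 [−0.26 to −0.05] in rTreg. The additive fit gave −0.37 (SE 0.093, edgeR adjusted p = 0.00519). With 1 library left out and state dropped, the effect of Dnajb9 was −0.12 without KO-labelled aTreg and −0.64 without KO-labelled rTreg, and neither passed.

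**Figure D2:**
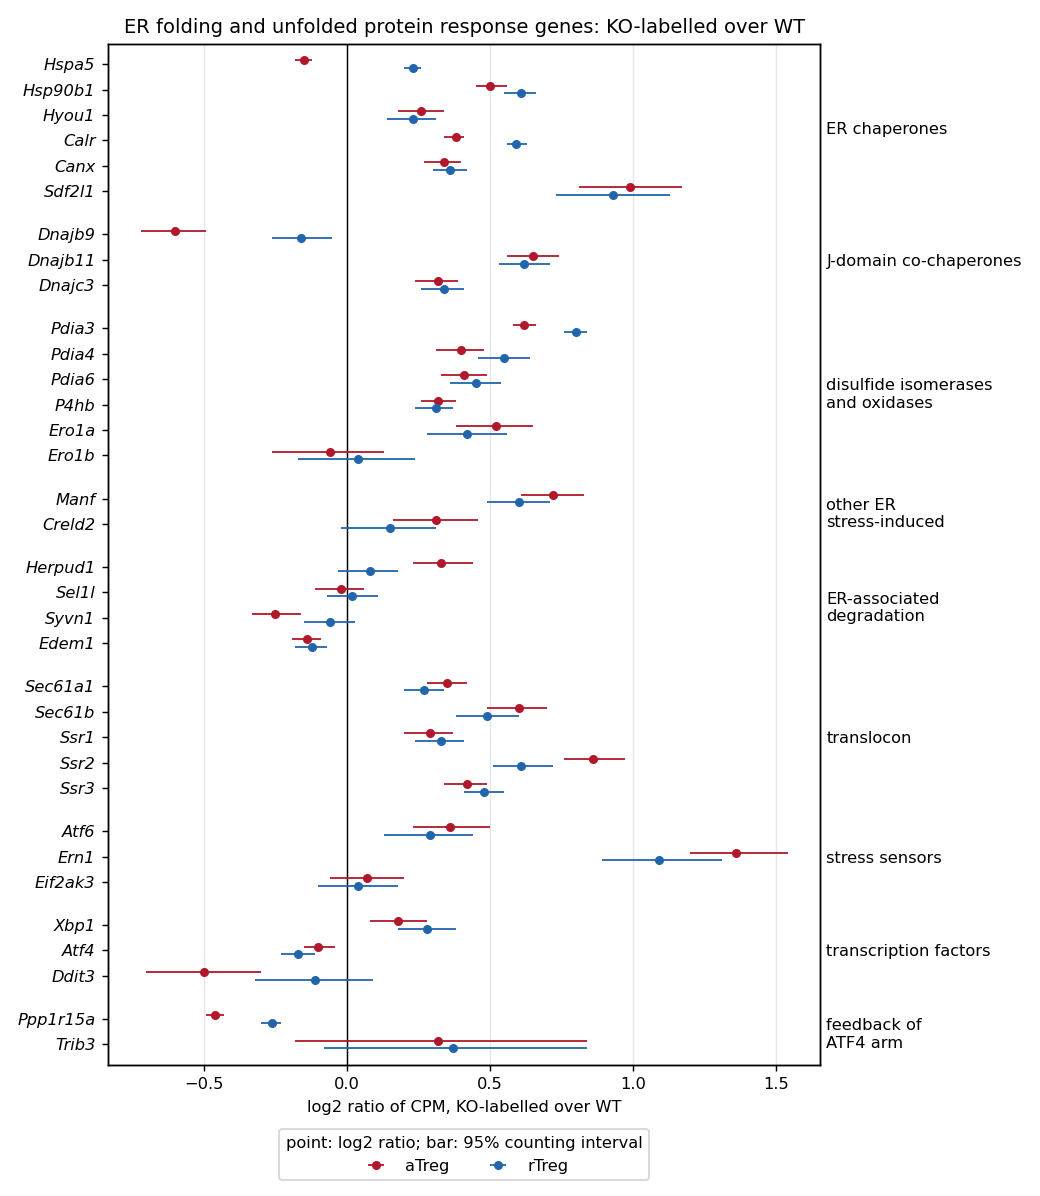
Log2 ratio of CPM, KO-labelled over WT, for the 34 members by role, in aTreg (red) and rTreg (blue), 1 library per group, with bars for the 95% counting interval. Ern1 lies farthest to the right, at 1.36 in aTreg and 1.09 in rTreg, and Hspa5 lies on opposite sides of 0 in the 2 states.

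The sites through which ATF6 and XBP1 act on chaperone genes were first described in promoters such as those of Hspa5, Hsp90b1 and Calr, so their presence below is a description of the list and no independent finding. The ER stress response element (ERSE) is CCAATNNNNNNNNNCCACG, in which NF-Y binds the first 5 letters and ATF6 or XBP1 the last 5. It was searched on both strands from 250 bases before to 50 bases after the start of each gene in RefSeq (GRCm38.p6), where 29 of the 34 members had an entry. The gene spans given in the text are those of GENCODE, whose starts can differ. The Hspa5 match below thus lies inside the span given for Hspa5, though before its start in RefSeq. ERSE was found in 9 of the 29 members, against 13 of 7733 tested genes with an entry (0.168%), and in 39 of all 32851 promoters (0.119%). The matches are shown because this element is the known site of ATF6 and XBP1 action on such genes. Of the ER chaperones with an entry, Hspa5, Hsp90b1, Calr and Canx hold it and Sdf2l1 does not. Each match is written 5′ to 3′ in the orientation of the element, with its 2 end blocks of 5 bases in capitals and 10 flanking bases on each side.
Hspa5, chr2:34772015-34772053, plus strand: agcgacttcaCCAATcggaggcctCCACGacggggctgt
Hsp90b1, chr10:86705628-86705666, minus strand: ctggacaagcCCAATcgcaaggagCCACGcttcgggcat
Hsp90b1, chr10:86705523-86705561, plus strand: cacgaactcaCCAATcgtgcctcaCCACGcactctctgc
Calr, chr8:84847065-84847103, plus strand: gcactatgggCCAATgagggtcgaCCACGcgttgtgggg
Canx, chr11:50325790-50325828, minus strand: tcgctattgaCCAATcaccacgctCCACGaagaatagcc
Dnajc3, chr14:118937817-118937855, plus strand: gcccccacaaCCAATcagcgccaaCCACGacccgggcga
Pdia6, chr12:17266481-17266519, plus strand: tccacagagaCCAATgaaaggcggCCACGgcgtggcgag
Ero1b, chr13:12565672-12565710, minus strand: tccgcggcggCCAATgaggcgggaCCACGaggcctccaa
Creld2, chr15:88819510-88819548, minus strand: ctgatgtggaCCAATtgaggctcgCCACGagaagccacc
Syvn1, chr19:6046522-6046560, plus strand: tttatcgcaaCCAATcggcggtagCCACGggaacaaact

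Between the end blocks the 9 bases differ from gene to gene, while the blocks are fixed by the search. The plot of match positions shows them between 26 and 212 bases before the start. Hsp90b1 carries 1 match on each strand, and its promoter up to the start (chr10:86705445-86705694, minus strand, both matches in capitals) reads as follows.
Hsp90b1 promoter: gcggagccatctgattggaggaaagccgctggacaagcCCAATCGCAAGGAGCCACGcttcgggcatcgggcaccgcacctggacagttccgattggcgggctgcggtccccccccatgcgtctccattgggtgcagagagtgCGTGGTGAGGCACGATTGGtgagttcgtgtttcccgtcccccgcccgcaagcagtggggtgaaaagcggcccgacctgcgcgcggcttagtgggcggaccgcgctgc

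Of the 9 members with ERSE, 5 rose (Hsp90b1, Calr, Canx, Dnajc3 and Pdia6) and Hspa5, Ero1b, Creld2 and Syvn1 did not pass. Over all tested genes, 24.4% rose and 22.8% fell. Of the 19 tested members with an entry but no match, 12 rose and 2 fell, and all 5 members with no entry (Hyou1, Manf, Sec61a1, Ssr2 and Atf6) rose. Outside the list, 4 tested genes carry ERSE, named after their values were seen. Hnrnpa3 rose by 0.29 log2 units, Pan2 fell by 0.24, and Adcy3 and Alg12 had effects of −0.07 each that did not pass. ERSE-II, in which 1 base of any kind separates ATTGG from CCACG, was found in Dnajb11 and Herpud1, against 0.116% of tested genes.
Herpud1 ERSE-II, chr8:94386367-94386397, plus strand: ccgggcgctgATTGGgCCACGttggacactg

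Its capitals mark the 2 blocks. The CCAAT block alone occurs in 22 of the 29 members (75.9%), against 43.1% of tested genes, and lies within every ERSE. The core of the XBP1 element UPRE, TGACGTGG, was in none of the 29 windows, against 1.01% of tested genes. TTGCATCA, a composite site for C/EBP proteins and ATF4, was in Herpud1, against 0.672% of tested genes.

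**Figure D3:**
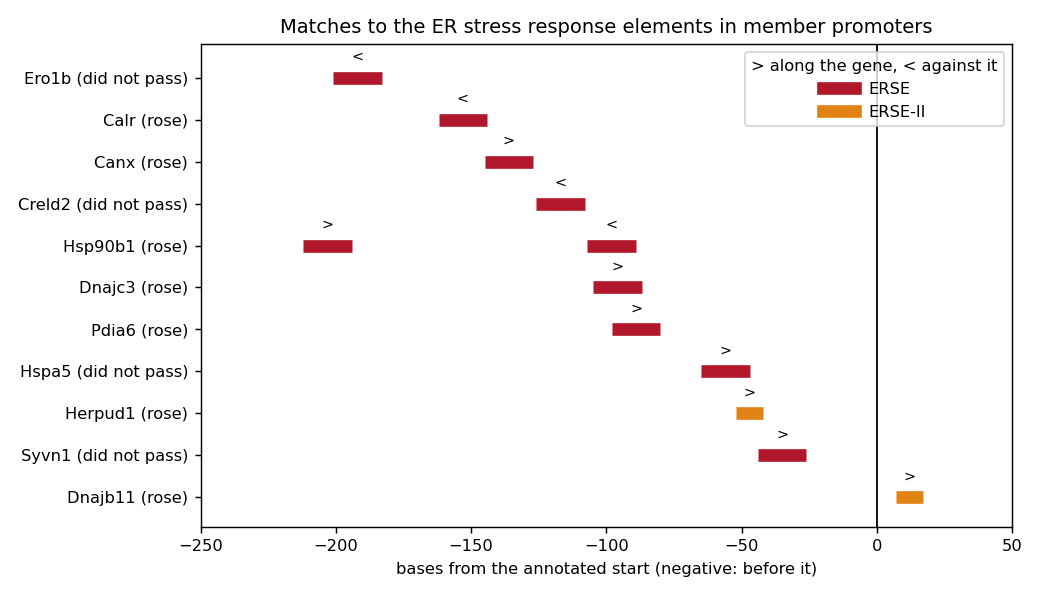
Position of each match to ERSE (red) and ERSE-II (orange) in the members' promoters, in bases from the start annotated in RefSeq. An arrowhead shows the direction of the element, and the genotype call stands beside each gene name. Matches to ERSE lie between 26 and 212 bases before the start, both in members that rose and in members that did not pass.

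Disulfide bonds in the ER are made by the protein disulfide isomerases, which the ERO1 oxidases recharge. Pdia3 (ERp57; chromosome 2, 121413775 to 121438687, plus strand), which works with calnexin and calreticulin and in the loading of MHC class I, was at 626 and 699 CPM in KO-labelled aTreg and rTreg, against 409 and 402 CPM in WT aTreg and rTreg. The groups did not overlap. Pdia3 rose 1.63-fold, 0.71 log2 units (SE 0.0722, edgeR adjusted p = 6.88e-06).

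Pdia4, Pdia6 and P4hb rose by less, by 0.47, 0.43 and 0.31 log2 units. Pdia6 and P4hb lost the call with state dropped from the fit. Pdia4 (ERp72) was at 137 and 134 CPM in KO-labelled aTreg and rTreg, against 104 and 91.5 CPM in WT aTreg and rTreg. P4hb, the founding isomerase of the family, was at 275 and 244 CPM in the KO-labelled libraries, against 220 and 197 CPM in WT. In both genes both KO-labelled libraries were above both WT libraries, as in 33.2% of all tested genes.

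The 2 oxidase genes parted. Ero1a was at 57.2 and 48.9 CPM in KO-labelled aTreg and rTreg, against 40.0 and 36.6 CPM in WT aTreg and rTreg, and rose by 0.47 (SE 0.0862, edgeR adjusted p = 0.000681). Ero1b, with 20.2 to 22.9 CPM in the 4 libraries, had an effect of −0.02 (SE 0.121) and did not pass. Pdia3 and Pdia6 overlap Catsper2 and Atp6v1c2 on the opposite strand, and whether counting used the strand is not given in the sources used here.

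Manf and Creld2 encode small ER proteins that are induced and partly secreted under ER stress. Manf was at 87.5 and 83.8 CPM in KO-labelled aTreg and rTreg, against 53.2 and 55.2 CPM in WT aTreg and rTreg, and rose 1.58-fold (edgeR adjusted p = 1.05e-05). It overlaps Rbm15b on the same strand and Dcaf1 on the other. Creld2 had a ratio of 0.31 [0.16 to 0.46] in aTreg and 0.15 [−0.02 to 0.31] in rTreg and did not pass (edgeR adjusted p = 0.0774).

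Every translocon gene of the list rose, but Sec61a1 and Ssr1 lost the call with state dropped from the fit. In the authors' deposited table the adjusted p of Sec61a1 and Ssr1 was not below 0.05. Ssr1, Ssr2 and Ssr3 encode subunits of TRAP, the complex that accompanies the Sec61 channel and helps some signal sequences to enter it. Ssr2 (chromosome 3, 88575876 to 88588419, plus strand) was at 104 and 99.7 CPM in KO-labelled aTreg and rTreg, against 57.2 and 65.1 CPM in WT aTreg and rTreg. It rose 1.67-fold, 0.74 log2 units (SE 0.0761, edgeR adjusted p = 7.3e-06), the third largest rise of the members by fold after Ern1 and Sdf2l1. Ssr3 rose by 0.45 and Ssr1 by 0.31. Ssr4, a further TRAP subunit gene that is not among the members, had an effect of −0.08 and did not pass (edgeR adjusted p = 0.404).

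The channel subunit genes rose with them. Sec61b was at 92.6 and 84.3 CPM in KO-labelled aTreg and rTreg, against 61.2 and 60.0 CPM in WT aTreg and rTreg, a change of 0.54 log2 units (SE 0.07, edgeR adjusted p = 4.28e-05). Sec61a1, the pore-forming subunit, was at 199 and 188 CPM in the KO-labelled libraries, against 156 and 155 CPM in WT, a change of 0.31. In all 5 translocon genes both KO-labelled libraries lay above both WT libraries, a position that 33.2% of all tested genes shared.

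ER-associated degradation sends misfolded proteins back to the cytosol, where they are ubiquitinated. Its members in the list had little difference between genotypes. Herpud1, an organiser of the ubiquitin ligase complex, was at 85.6 and 80.6 CPM in KO-labelled aTreg and rTreg, against 68.0 and 76.5 CPM in WT aTreg and rTreg. It rose by 0.20 (edgeR adjusted p = 0.0436), a call that was lost with DESeq2's size factors, with upper-quartile scaling and with DESeq2. Without WT aTreg, and with state dropped, the effect of Herpud1 was 0.10.

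Sel1l and Syvn1 encode the core of the HRD1 ligase, and Edem1 a lectin that delivers glycoproteins to it. Sel1l had 105 to 110 CPM in all 4 libraries and an effect of 0.00 (SE 0.0651). Syvn1 was at 111 and 108 CPM in KO-labelled aTreg and rTreg, against 131 and 113 CPM in WT aTreg and rTreg, with an effect of −0.15 (edgeR adjusted p = 0.0845). Edem1 had an effect of −0.13 (edgeR adjusted p = 0.121). With upper-quartile scaling Syvn1 and Edem1 passed as lower, so their calls rest on the scaling. Mrpl49 overlaps Syvn1 on the opposite strand.

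The 3 sensors differed from each other. Ern1 (chromosome 11, 106394650 to 106487852, minus strand), which encodes IRE1alpha, the kinase and RNase that splices Xbp1 mRNA, had the largest change of the members. It was at 49.0 CPM in KO-labelled aTreg, 30.0 CPM in KO-labelled rTreg, 19.0 CPM in WT aTreg and 14.0 CPM in WT rTreg. Both KO-labelled libraries were above both WT libraries, and aTreg was above rTreg in each genotype.

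Ern1 was 2.57-fold higher in KO-labelled than in WT aTreg, a log2 ratio of 1.36 [1.20 to 1.54], and 2.13-fold higher in rTreg, 1.09 [0.89 to 1.31]. The additive genotype effect was 1.24 log2 units (SE 0.115, edgeR adjusted p = 3.25e-06). Atf6 was at 54.3 and 38.7 CPM in KO-labelled aTreg and rTreg, against 42.1 and 31.7 CPM in WT aTreg and rTreg. Here the groups overlapped, since WT aTreg stood above KO-labelled rTreg, and the gene rose by 0.33 (SE 0.09, edgeR adjusted p = 0.00959) within states. DESeq2 did not call it. With 1 library left out and state dropped, the effect of Atf6 was 0.07 without KO-labelled aTreg, 0.56 without KO-labelled rTreg, 0.53 without WT aTreg and 0.14 without WT rTreg, and none passed.

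Eif2ak3, which encodes PERK, was at 48.3 and 45.0 CPM in KO-labelled aTreg and rTreg, against 46.1 and 43.7 CPM in WT aTreg and rTreg. The effect of 0.06 (SE 0.0848, edgeR adjusted p = 0.613) was smaller than its error. Of the transcription factors, Xbp1 was at 92.5 and 93.5 CPM in the KO-labelled libraries, against 81.7 and 76.9 CPM in WT, and rose by 0.23 (SE 0.068, edgeR adjusted p = 0.014), a call that DESeq2 did not make.

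Atf4, whose protein level is set largely by translation, was at 269 and 241 CPM in KO-labelled aTreg and rTreg, against 287 and 271 CPM in WT aTreg and rTreg. Both KO-labelled libraries were the lowest, but the effect of −0.13 (SE 0.0667) did not pass (edgeR adjusted p = 0.122). Ddit3, which encodes CHOP, was at 17.6 and 19.6 CPM in the KO-labelled libraries, against 25 and 21.3 CPM in WT, an effect of −0.31 (SE 0.133, edgeR adjusted p = 0.074). With upper-quartile scaling both passed as lower. Ddit3 overlaps Mars on the opposite strand.

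Ppp1r15a (chromosome 7, 45522916 to 45526268, minus strand) encodes GADD34, which returns eIF2alpha to its unphosphorylated form and so ends the PERK signal. It was at 726 CPM in KO-labelled aTreg, 628 CPM in KO-labelled rTreg, 996 CPM in WT aTreg and 753 CPM in WT rTreg. Both KO-labelled libraries were below both WT libraries, and WT aTreg stood apart above the rest. It fell by 0.36 log2 units (SE 0.0729, edgeR adjusted p = 0.00135). Tulp2 overlaps Ppp1r15a on the opposite strand. Without WT aTreg, and with state dropped, the effect of Ppp1r15a was −0.17 and did not pass, and without WT rTreg it was −0.56. Trib3, an inhibitor of ATF4 signalling, had 72 and 85 counts in KO-labelled aTreg and rTreg, against 63 and 78 counts in WT aTreg and rTreg, with intervals that include 0 in both states.

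Ppp1r15a is also induced quickly by stimulation and handling of cells. Of 10 tested immediate early and heat shock genes, 7 fell in the KO-labelled libraries, where 22.8% of all tested genes fell. Summed levels over 12 genes were 4230 and 3620 CPM in KO-labelled aTreg and rTreg, against 7840 and 4560 CPM in WT aTreg and rTreg. Hsph1, a cytosolic chaperone, fell by 1.42 log2 units. The cytosolic heat shock genes Dnajb1 and Hsp90aa1 fell as well, by 0.63 and 0.21, in contrast to the rise of Hsp90b1 in the ER. The part of these genes' shift in the values of Ppp1r15a was not tested.

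**Figure D4:**
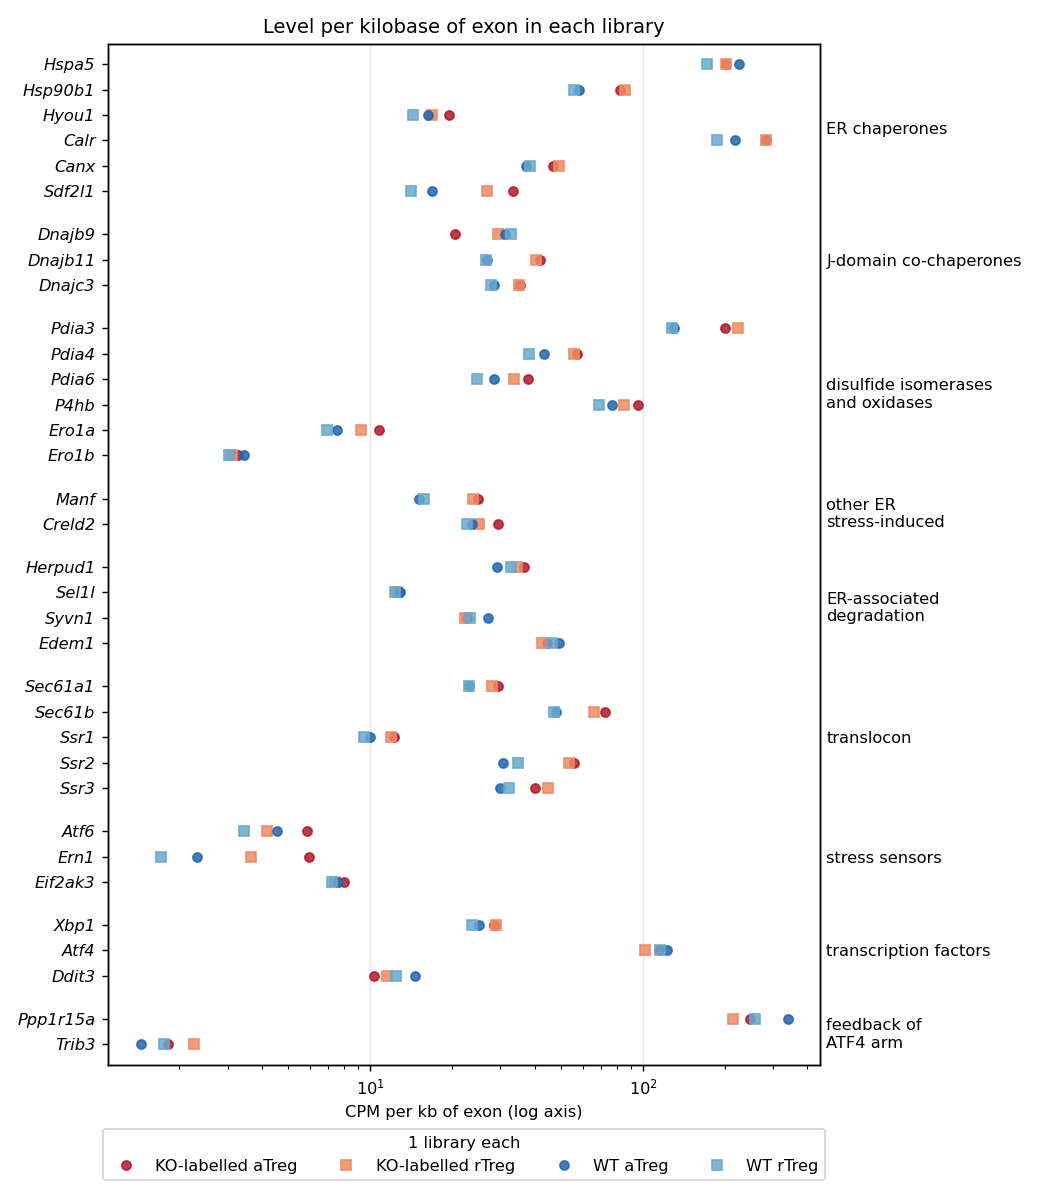
Level of each member in each library as CPM per kilobase of exon, on a log axis, by role (red shades, KO-labelled; blue shades, WT; circles, aTreg; squares, rTreg). Levels span from Trib3 at 1.44 to 2.27 CPM per kb up to Ppp1r15a at 214 to 339, and the KO-labelled points lie to the right of the WT points for most folding genes.

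Compared per length, the most abundant members were Ppp1r15a, Calr, Hspa5, Pdia3 and Atf4. On the scale of CPM per kilobase of exon, Calr was at 282 and 282 in KO-labelled aTreg and rTreg, against 217 and 187 in WT aTreg and rTreg. Hspa5 was at 202 and 201 in the KO-labelled libraries, against 224 and 171 in WT. In WT aTreg Hspa5 was thus above Calr, and in the other 3 libraries below it. The sensors were at the low end, with Ern1 at 5.99 and 3.67 in the KO-labelled libraries, against 2.32 and 1.71 in WT, and Atf6 at 5.88 and 4.20, against 4.57 and 3.44.

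Eif2ak3 was the highest of the 3 sensors per length in every library, at 8.02 and 7.46 CPM per kb in KO-labelled aTreg and rTreg, against 7.65 and 7.24 CPM per kb in WT aTreg and rTreg. Ern1 was the lowest of the 3 in both WT libraries and in KO-labelled rTreg, and lay beside Atf6 in KO-labelled aTreg, where they had 919 and 1018 counts.

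Between states the members differed little. Of the 33 tested, 3 rose in aTreg, against 7.91% of all tested genes, and 0 fell by edgeR's test, against 5.44%. Without adjustment, 8 members were higher and 1, Dnajb9, lower at p below 0.05, and DESeq2 called 1 as higher and 0 as lower. With genotype dropped from the fit, edgeR called 0 members, also 0 without adjustment. Over the members, the aTreg over rTreg log2 ratio had a median of 0.06 in the KO-labelled pair and 0.08 in the WT pair, and that of all tested genes was 0 in each.

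The aTreg library was the higher in both genotypes in 23 members, against 34.8% of all tested genes, and the lower in both in 3, against 34.1%. Ern1 alone rose by 1.5-fold, against 3.23%, and no member fell by as much, against 1.22%. It was also the 1 member at least 1.5-fold higher in the KO-labelled pair, against 3.05%, and none was in the WT pair, against 4.48%. At 2-fold there was no member in the KO-labelled pair, against 0.95% of genes higher and 0.134% lower, nor in the WT pair, against 1.87% and 0.723%.

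The 3 that rose were Ern1, Atf6 and Ppp1r15a, a pair of sensors and the GADD34 gene. Ern1 was higher in aTreg by 0.71 [0.55 to 0.87] in the KO-labelled pair and by 0.44 [0.22 to 0.66] in the WT pair (edgeR 0.59, SE 0.115, adjusted p = 0.00446). Atf6 was higher by 0.49 [0.35 to 0.63] in the KO-labelled pair and 0.41 [0.26 to 0.56] in the WT pair (edgeR 0.45, SE 0.0901, adjusted p = 0.00522). Ern1 and Atf6 lost the call with DESeq2.

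Ppp1r15a was higher in aTreg by 0.21 [0.17 to 0.25] in the KO-labelled pair and 0.40 [0.37 to 0.43] in the WT pair (edgeR 0.31, SE 0.0729, adjusted p = 0.014). Of the 10 tested immediate early and heat shock genes, 7 rose in aTreg too, against 7.91% of all tested genes. Hspa5 was higher by 0.39 [0.36 to 0.42] in the WT pair and by 0.01 [−0.02 to 0.04] in the KO-labelled pair. The additive state effect of Hspa5, 0.20 (SE 0.0857), did not pass (edgeR adjusted p = 0.155).

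**Figure D5:**
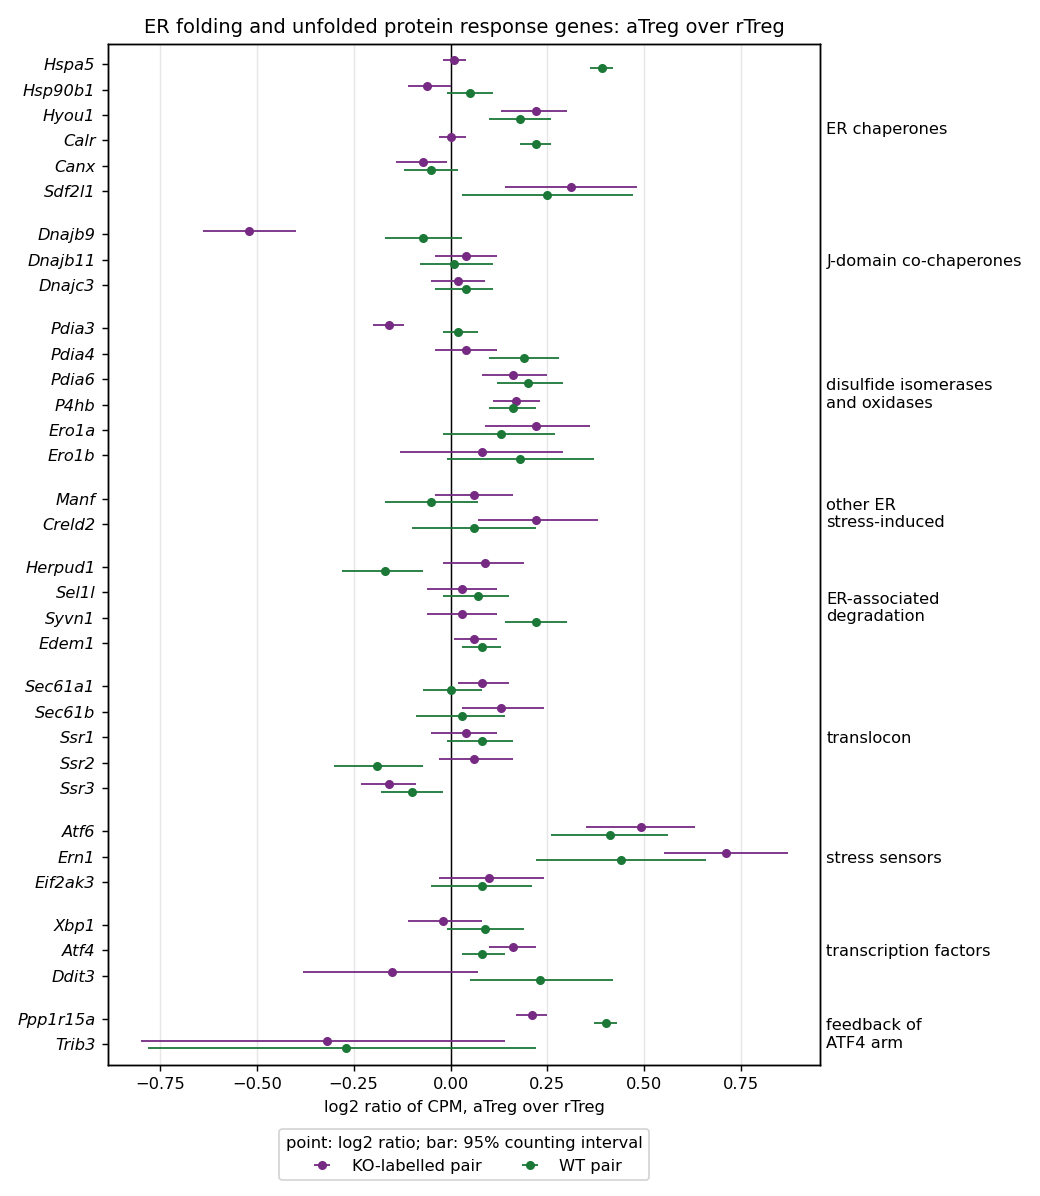
Log2 ratio of CPM, aTreg over rTreg, for the 34 members by role, in the KO-labelled pair (purple) and the WT pair (green), with bars for the 95% counting interval. The median is 0.06 in the KO-labelled pair and 0.08 in the WT pair, and Ern1 and Atf6 lie to the right in both genotypes.

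The genotype ratio differed most between states where it was lower in aTreg. The difference of log2 ratios, aTreg minus rTreg, was −0.45 for Dnajb9, −0.39 for Ddit3, −0.38 for Hspa5 and −0.22 for Calr. In the other direction it was 0.27 for Ern1, 0.26 for Herpud1 and 0.25 for Ssr2. With 1 library per group these differences could not be tested.

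Genes of the same pathway outside the list were counted in 6 further groups, to be read against the 24.4% of all tested genes that rose and the 22.8% that fell with genotype. Of 18 tested translocon, signal recognition and signal peptidase genes, 10 rose and 1 fell, with medians of 0.25 in aTreg and 0.25 in rTreg. The signal peptidase subunit genes Spcs3 and Spcs1 rose by 0.53 and 0.47, and Sec61a2, a second form of the channel, fell by 0.50. Of 21 N-glycosylation and glycoprotein quality control genes, 10 rose and 1 fell, with medians of 0.22 and 0.20. Dpagt1, the first enzyme of the lipid-linked glycan, rose by 0.70, and Ostc and Ost4, of the oligosaccharyltransferase, by 0.57 and 0.52.

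Of 17 other ER chaperones and folding enzymes, 7 rose, among them Txndc5 (0.84), Dnajc10 (0.39) and Erp44 (0.38), with medians of 0.23 in aTreg and 0.09 in rTreg. Of 23 other ER-associated degradation genes, 6 rose and 4 fell, shares near those of all tested genes, with medians of 0.03 and 0.08. Erlec1, an ER lectin, rose by 0.46, while the ubiquitin ligase gene Rnf5 and the mannosidase-like Edem3 fell by 0.49 and 0.30.

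Of 24 tested ATF4 and CHOP target and amino acid response genes, 9 rose and 4 fell, with medians of 0.09 and 0.10. Wars, the tryptophanyl-tRNA synthetase, which interferon-gamma also induces, rose by 1.14 and Psat1, of serine synthesis, by 0.80. Ddit4, an inhibitor of mTORC1, fell by 0.87. Of 17 other sensors and processing factors, 5 rose and 4 fell. Eif2s1, which encodes eIF2alpha, rose by 0.41, and Bcl2l11 (BIM) and Bbc3 (PUMA), death genes that CHOP can induce, fell by 1.01 and 0.83. For state, the largest called changes in these groups were of Cebpb, which rose by 1.05, and Bcl2l11, which fell by 0.61 in aTreg. Sec63 fell by 0.40, Mogs rose by 0.40 and Magt1 fell by 0.31. Traf2 (0.28), Srprb (0.26), Slc3a2 (0.26) and Aup1 (0.23) rose.

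Plasma cells hold large amounts of ER folding mRNA, so their markers were read beside these values. Of the 12 listed, Sdc1 (0.16 to 0.486 CPM), Mzb1 (0.0477 to 0.107 CPM) and Tnfrsf17 (0 to 0.0568 CPM) had at most 10 counts in any library. The ER gene Derl3 was higher, at 3.04 and 2.84 CPM in KO-labelled aTreg and rTreg, against 2.14 and 2.05 CPM in WT aTreg and rTreg. The counting intervals of its genotype ratios include 0 in both states. Jchain was at 0.853 and 1.53 CPM in KO-labelled aTreg and rTreg, against 0.243 and 0.143 CPM in WT aTreg and rTreg. Igha was at 2.72 and 7.44 CPM in the KO-labelled libraries, against 0.388 and 0.0477 CPM in WT. Ighg2b had 75 counts in KO-labelled aTreg and 0 in the other 3 libraries. These antibody genes were thus higher in a KO-labelled library than in either WT library. The summed level of the list was 785 and 809 CPM in KO-labelled aTreg and rTreg, against 622 and 362 CPM in WT aTreg and rTreg, of which Ighm made up 689 and 732 CPM, against 579 and 343 CPM. Igkc was at 16.0 and 20.7 CPM in the KO-labelled libraries, against 1.51 and 1 CPM in WT. Prdm1, which effector Treg cells also express, rose by 1.16 log2 units. Of the 12, 3 passed the level minimum and all 3 rose, where 24.4% of all tested genes rose. Between 2 and 3 of the 12 were at 0 in a library. The part of plasma cell RNA in the folding genes' values was not tested.

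Markers of other cells that could be present had low sums, which were higher in the KO-labelled library of each state. Summed levels were 30.5 and 26.1 CPM over 10 B cell genes in KO-labelled aTreg and rTreg, against 28.2 and 16.7 CPM in WT aTreg and rTreg. Over 7 macrophage and monocyte genes they were 15.5 and 18.7 CPM, against 14.1 and 14.3 CPM, and over 5 erythroid genes 12.0 and 10.9 CPM, against 1.70 and 0.62 CPM. Neutrophil genes summed to 2.19 and 4.09 CPM in KO-labelled aTreg and rTreg, against 0.825 and 0.191 CPM in WT aTreg and rTreg. Dendritic cell genes summed to 5.38 and 3.12 CPM, against 3.01 and 0.953 CPM, and NK cell genes to 7.51 and 7.55 CPM, against 3.06 and 2.19 CPM. The 2 CD8 T cell genes summed to 9.65 and 12.9 CPM, against 7.82 and 10.5 CPM. The part of these cells in the results was not tested.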

How the data were processed

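The labels' protocols name TRIZOL for extraction and a SMARTER mRNA-Seq kit for library construction. The submitters' processing notes list HISAT2 (2.2.1), featureCounts (2.0.1) and GRCm38. Annotation and strand setting were not given there. The deposited table holds whole read counts per gene symbol, not normalized by the authors. A second deposited table holds variance-stabilised values on a log2-like scale and the authors' log2 fold change of genotypes (positive where WT is higher) with its error, p-value and adjusted p-value, per the file headers. Its mean normalized count is a signal and its test statistic a score, both deposited by the authors and not used here.

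The tests covered the 9680 genes (99.31% of counts) whose mean reached 5 CPM. edgeR 4.0.16 in R 4.3.3 was used with TMM factors (0.995 to 1.01), additive terms for genotype and state (1 residual and 11.8 prior degrees of freedom, biological coefficient of variation 6.66%) and Benjamini-Hochberg adjustment over all tested genes at 0.05. The SE given with an effect is its absolute log2 value divided by the square root of the test's F statistic. Log2 CPM ratios used a prior count of 2. Their 95% exact binomial intervals cover counting error only, since each compares 2 single libraries. PCR copies are not independent molecules, so the intervals can be too narrow even for counting error. A count of 0 allows up to 3 counts, 0.143 to 0.17 CPM. Levels per kilobase used the union of exons in GENCODE M21 (GRCm38). DESeq2 1.42.0, other scalings, level filters, designs and folds were tried as alternatives.

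The members, their roles, the wider lists and markers were chosen with earlier results of these data known. All members are described. From each wider list the 3 genes called for genotype and 2 called for state with the largest change are named, and Ssr4 besides. Promoter sequences are RefSeq's (GRCm38.p6), matched by symbol.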

Additional observations from a re-analysis of the deposited data

Results flagged for a closer look

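Hspa5 was the 1 member whose genotype ratio had opposite signs in the 2 states beyond counting error, with log2 ratios of KO-labelled over WT of −0.15 in aTreg and 0.23 in rTreg. The difference between the states was not tested, since each rests on 1 library per group.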

How the results depend on the processing

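With other scalings, filters and DESeq2, the number of members that rose with genotype stayed within 1.5 times of 22. With state left out of the fit it was 13 (all genes, 929 rose and 697 fell; 0 members fell by edgeR, also 0 at an unadjusted p below 0.05). DESeq2 called 1370 genes as higher and 1157 as lower for genotype, with 18 members as higher. With upper-quartile scaling 6 members fell. Leaving out each library in turn, an alternative chosen after seeing the data that also drops state from the fit, gave 0 to 11 members that rose and 0 to 1 that fell, and over all genes 0 to 901 and 1 to 692. Without KO-labelled aTreg or without KO-labelled rTreg the number was 0 (13 and 18 at an unadjusted p below 0.05 by edgeR), without WT aTreg 11 and without WT rTreg 9. In these fits the genotype effect ranged over −0.15 to 0.22 for Hspa5, turned in sign without WT rTreg, and over −0.1 to 0.06 for Ero1b, turned without KO-labelled rTreg (0.02) and without WT aTreg (0.06). With upper-quartile scaling Hspa5 for genotype (−0.01) and Manf for state (−0.01) turned in sign. The cause was not tested.

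For state, DESeq2 called 289 genes as higher and 134 as lower, 1 member among the higher ones. With genotype left out, edgeR called 0 genes either way and 0 members (221 and 107 genes and 0 members at an unadjusted p below 0.05). With no level filter 793 genes fell. With upper-quartile scaling, with library totals and with no filter 1 member, Dnajb9, fell.

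At 1.5-fold in place of 2-fold, 948 genes were higher and 772 lower in KO-labelled than in WT aTreg, with 7 and 1 members. In rTreg they were 846 and 573, with 8 members higher. Between aTreg and rTreg they were 295 and 143 in the KO-labelled pair, with 1 member higher, and 434 and 290 in the WT pair. On the deposited variance-stabilised scale, 129 and 35 genes were at least 1 unit higher and lower in KO-labelled than in WT aTreg. In rTreg they were 74 and 10. Between states they were 16 and 1 in the KO-labelled pair and 30 and 3 in the WT pair, with 0 members. That scale compresses ratios at lower counts, so 1 unit is not 2-fold in CPM. Ern1, with a log2 CPM ratio of 1.36 in aTreg, was at 10.35 in KO-labelled and 9.45 in WT aTreg on it. In the 150 bases before the start, ERSE-II was in 1 member. No paired analysis was possible because the labels give no replicate numbers and each group has 1 library. Depth limits Trib3 most, with 63 to 85 counts per library.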
